A study of Mus musculus with 20 samples.

Results

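The nuclear-encoded genes of respiratory chain complexes II, III and IV and of the ATP synthase, complex V, were followed in RNA-seq libraries of mouse islets whose β-cells lacked the mitofusins Mfn1, Mfn2 or both. The members were Sdha, Sdhb, Sdhc, Sdhd, Cyc1, Cycs and every protein-coding gene whose symbol begins with Sdhaf, Uqcr, Uqcc or Atp5, or with Cox and a digit. The annotation held 66 such genes, and 63 of them were among the 28632 genes of the count table. Cox8b, Cox8c and a second gene with the symbol Atp5o were not analysed here. By complex, 8 members belonged to complex II, 13 to complex III with its carrier cytochrome c, 25 to complex IV and 17 to complex V. Over the 20 libraries the mean of 59 of the 63 members reached 100 normalized counts, where a normalized count is the deposited count scaled by library size and TMM factor to the mean library.

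All mice were 12 weeks old, of both sexes and on a C57BL/6N background. The groups were Ctrl (n = 6), β-Mfn1KO (Mfn1 loxP/loxP with Ins1-Cre, n = 4), β-Mfn2KO (Mfn2 loxP/loxP with Ins1-Cre, n = 5) and β-Mfn1/2DKO (both genes floxed with Ins1-Cre, n = 5). The Ctrl mice are labelled wild type, while by the study's methods its controls combined Cre-only and floxed-only mice. Recombination was driven by Ins1 and hence confined by design to β-cells. The libraries came from whole islets cultured after isolation, so that fewer β-cells and less RNA per β-cell cannot be told apart by the counts alone. In slightly younger mice the study found β-cell mass not significantly different between genotypes. The deleted parts are exon 4 of Mfn1 and exon 6 of Mfn2, and counts were summed over whole genes. Mfn1 was at 1670 ± 114 normalized counts (SD) in Ctrl, 674 ± 68.1 in β-Mfn1KO and 797 ± 165 in β-Mfn1/2DKO, and Mfn2 was at 3505 ± 519 in Ctrl, 1577 ± 80.5 in β-Mfn2KO and 2084 ± 45.1 in β-Mfn1/2DKO.

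Ins2, which codes for insulin, was at 3947986 to 6530606 normalized counts in Ctrl and at 1858698 to 2588383 in β-Mfn1/2DKO. Total counts, with M for mega, ran from 12.4 to 20.3 M in Ctrl, 15.7 to 16.7 M in β-Mfn1KO, 15.1 to 59.5 M in β-Mfn2KO and 65.5 to 122.9 M in β-Mfn1/2DKO. Every β-Mfn1/2DKO library was deeper than every Ctrl library, and β-Mfn2KO replicates 4 and 5, at 56.0 and 59.5 M, were the other libraries above 40 M counts. The summed level of 18 acinar genes, a sign of exocrine tissue among the islets, was 17292 to 119496 in Ctrl, at most 45681 in β-Mfn1/2DKO replicates 1 to 3, and 1047242 and 2761937 in replicates 4 and 5. All 18 were higher in β-Mfn1/2DKO than in Ctrl, as were 5 of 5 endothelial genes, and 11 of 12 β-cell genes were lower, with summed levels of 6118567 to 9743990 in Ctrl and 2717851 to 3682825 in β-Mfn1/2DKO. The part of these cell types in the members' values was not tested, other than by leaving libraries out and by an acinar covariate. Counts of members are therefore given with and without replicates 4 and 5, and depth and group cannot be told apart between β-Mfn1/2DKO and Ctrl.

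Complex II, succinate dehydrogenase, passes electrons from succinate to ubiquinone and is the one complex of the chain with no subunit encoded in mtDNA. Complex III passes them from ubiquinol to cytochrome c, complex IV from cytochrome c to oxygen, and complex V uses the proton gradient so formed to make ATP. In β-cells the ATP so produced closes ATP-sensitive potassium channels and links glucose metabolism to insulin release. Complexes III, IV and V join mtDNA-encoded subunits to a larger number of nuclear-encoded ones, and each is built with the help of nuclear-encoded assembly factors.

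In β-Mfn1/2DKO islets 11 of the 63 members were lower than in Ctrl and 3 were higher, while 49 did not pass the test. The test was edgeR's quasi-likelihood test at a Benjamini-Hochberg adjusted p under 0.05 over all 28632 genes. The lower members were Sdhc of complex II, Uqcrb and Uqcr11 of complex III, Cox6b1, Cox7b, Cox7c and Cox17 of complex IV, and Atp5g1, Atp5j, Atp5j2 and Atp5k of complex V. The higher members were Sdhaf1, Cox10 and Cox6a2. Of all 28632 genes 16.5% passed in either direction. Among all genes whose mean reached 100 normalized counts, 14.0% were lower and 19.5% were higher, beside 11 and 3 of the 59 members of that level. The median log2 fold change was -0.09 over the members and 0.03 over all genes of that level.

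The changes were small. A fold change over 1.5 beside the adjusted p was reached by 2 members, Cox6a2 and Atp5k, against a background of 7.44% of the genes whose mean reached 100. The standard error of a member's log2 fold change had a median of 0.08. In 4 members every β-Mfn1/2DKO library lay below every Ctrl library (Sdhc, Uqcrb, Cox7b and Atp5j), as in 8.59% of all genes of that level. In 1 member, Cox10, every β-Mfn1/2DKO library lay above every Ctrl library, against 12.0% of all genes. Without β-Mfn1/2DKO replicates 4 and 5 the counts were 4 lower (Sdhc, Uqcrb, Uqcr11 and Atp5g1) and 5 higher (Sdhaf1, Cox10, Cox6a2, Sdhb and Uqcc2), against 8.04% and 15.7% of all genes in that fit.

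**Figure D1:**
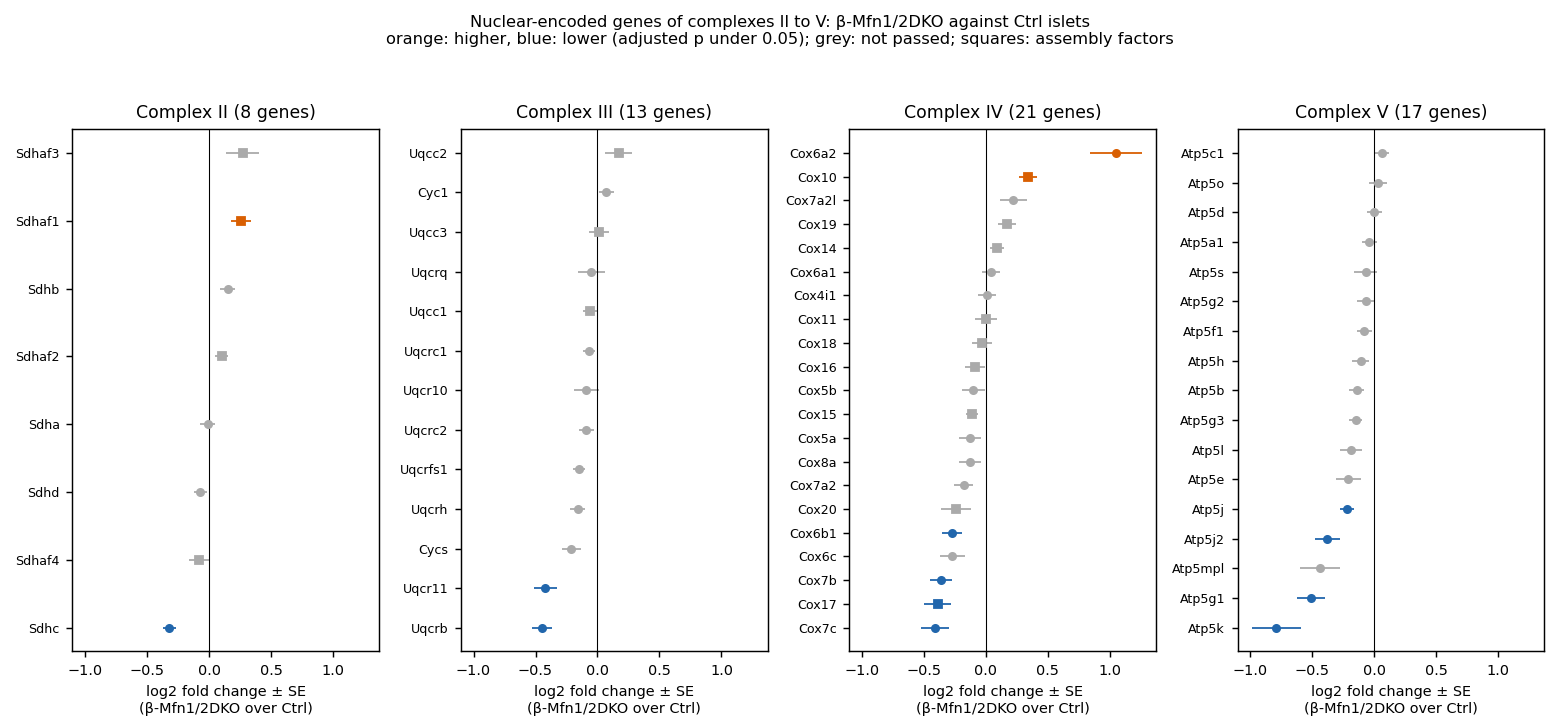
Difference between β-Mfn1/2DKO and Ctrl as a log2 fold change (x axis, with its standard error) for each of the 59 members whose mean reached 100 normalized counts (y axis), 1 panel per complex. Blue marks the 11 lower members, orange the 3 higher ones, grey those that did not pass and squares the assembly factors, and Cox6a2, at 1.05, and Atp5k, at -0.79, lie farthest from 0.

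When libraries were scaled to total counts, the median of all genes of that level moved from 0.03 to 0.17 on the log2 scale, and 10 members were then higher and 5 lower, against 39.3% and 6.06% of all genes, with a members' median of 0.05. With DESeq2's size factors 3 were higher and 17 lower, against 16.2% and 17.2% of all genes, and the medians were -0.12 over the members and 0.0 over all genes of that level. With the authors' own per-gene normalization factors 4 were higher and 8 lower, against 13.1% and 14.6% of all genes, with medians of -0.04 and 0.0. The members' median was below that of all genes under each of these scalings, while the number of members that were lower ranged from 5 to 17. None of the 14 members that passed changed direction under any alternative that was run.

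Complex II had 4 subunits and 4 assembly factors among the members. Sdhc, a membrane subunit that anchors the enzyme and takes part in binding ubiquinone (ENSMUSG00000058076, chr1:171127165-171150603, GRCm38), was the subunit that was lower. It was at 2965, 3103, 2908, 2942 and 2596 normalized counts in the β-Mfn1/2DKO libraries 1 to 5, and at a lowest of 3393, a median of 3576 and a highest of 3925 in Ctrl. These groups did not overlap. In β-Mfn2KO it was at 3495, 3925, 3292, 3616 and 3385, and in β-Mfn1KO at 3972, 3695, 4043 and 4028, so that all 9 single knockout libraries lay above the 5 β-Mfn1/2DKO ones. The log2 fold change over Ctrl was -0.32 ± 0.05 (SE; edgeR adjusted p = 0.00022), a level 0.803 times that of Ctrl. Sdhc has a reference transcript of 3171 bases, the longest of the 11 lower members.

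The catalytic subunits of complex II did not pass. Sdha, the flavoprotein that oxidizes succinate and whose protein the study imaged to outline mitochondria, was at 11714 ± 720 in Ctrl and 11661 ± 545 in β-Mfn1/2DKO (log2 fold change -0.01 ± 0.06, edgeR adjusted p = 0.971). Sdhb, the iron-sulfur subunit, was at 2793 ± 99.6 and 3092 ± 330 (0.15 ± 0.06, edgeR adjusted p = 0.0968). Without replicates 4 and 5 Sdhb passed as higher. Sdhaf1, an assembly factor that helps to place iron-sulfur clusters in Sdhb, was at 1578, 1688, 1543, 1618 and 1336 in β-Mfn1/2DKO against a lowest of 1221, a median of 1283 and a highest of 1430 in Ctrl. Replicate 5 lay within the Ctrl range and the other 4 above it. Its log2 fold change was 0.26 ± 0.08 (edgeR adjusted p = 0.0233). Sdhaf1 lost the call without Ctrl replicate 3 or without Ctrl replicate 5. It also lost it with the authors' normalization factors, with depth class as a covariate and with length and GC offsets. The other members of complex II, Sdhd, the second membrane subunit, and the assembly factors Sdhaf2, Sdhaf3 and Sdhaf4, had log2 fold changes from -0.08 (Sdhaf4) to 0.27 (Sdhaf3). An exon of E130208F15Rik overlaps Sdhaf1 on the other strand, and whether strand was used in counting is not given in the sources used here.

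Complex III showed lower levels in 2 of its 9 subunits and in none of its 3 assembly factors. Uqcrb, the ubiquinone-binding subunit that packs against cytochrome b (ENSMUSG00000021520, chr13:66900617-66905378), was at 1437, 1632, 1419, 1489 and 1295 normalized counts in β-Mfn1/2DKO. In Ctrl its lowest, median and highest values were 1819, 2011 and 2108. The β-Mfn1KO libraries were at 2398, 2392, 2002 and 2035 and the β-Mfn2KO libraries at 1859, 1946, 1688, 2288 and 2344, so the β-Mfn1/2DKO libraries lay below all others. The log2 fold change was -0.45 ± 0.08 (edgeR adjusted p = 0.00026), or 0.73 times the Ctrl level. Uqcrb passed in the same direction under all 32 alternatives, although 16.7% of its 75-base stretches are shared with other genes, chiefly the processed pseudogene Gm16089.

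Uqcr11, a small subunit of complex III near the Rieske protein, was at 1815, 2207, 1821, 1935 and 1544 in β-Mfn1/2DKO and between 2200 and 2836 in Ctrl, with a Ctrl median of 2535. Replicate 2 reached into the Ctrl range and the other 4 lay below it (log2 fold change -0.42 ± 0.09, edgeR adjusted p = 0.00213). The call was lost with the authors' normalization factors, and the log2 fold change ran from -0.7 to -0.13 over the alternatives. The large core and catalytic subunits did not pass. Uqcrc2, a core subunit whose protein the study blotted, was at 6525 in Ctrl and 6139 in β-Mfn1/2DKO (-0.09 ± 0.06). Cyc1, cytochrome c1, had a log2 fold change of 0.07 ± 0.06 (edgeR adjusted p = 0.574).

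Cycs, the mobile carrier cytochrome c, was at 2666 ± 329 in Ctrl and 2306 ± 227 in β-Mfn1/2DKO, a log2 fold change of -0.21 ± 0.08 that did not pass (edgeR adjusted p = 0.0979). It passed with DESeq2, with the filter on low counts, with the replicate block and with the authors' factors. Of its 75-base stretches 23.9% occur in other genes. Uqcrfs1, the Rieske iron-sulfur protein, was at 3170, 3264, 3165, 3172 and 3176 in β-Mfn1/2DKO and from 3224 to 3669 in Ctrl (-0.15 ± 0.05, edgeR adjusted p = 0.0567). Uqcrfs1 passed as lower under 8 of 32 alternatives, DESeq2's size factors among them. The remaining subunits Uqcrc1, Uqcr10, Uqcrh and Uqcrq and the assembly factors Uqcc1, Uqcc2 and Uqcc3 lay between -0.16 (Uqcrh) and 0.17 (Uqcc2).

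**Figure D2:**
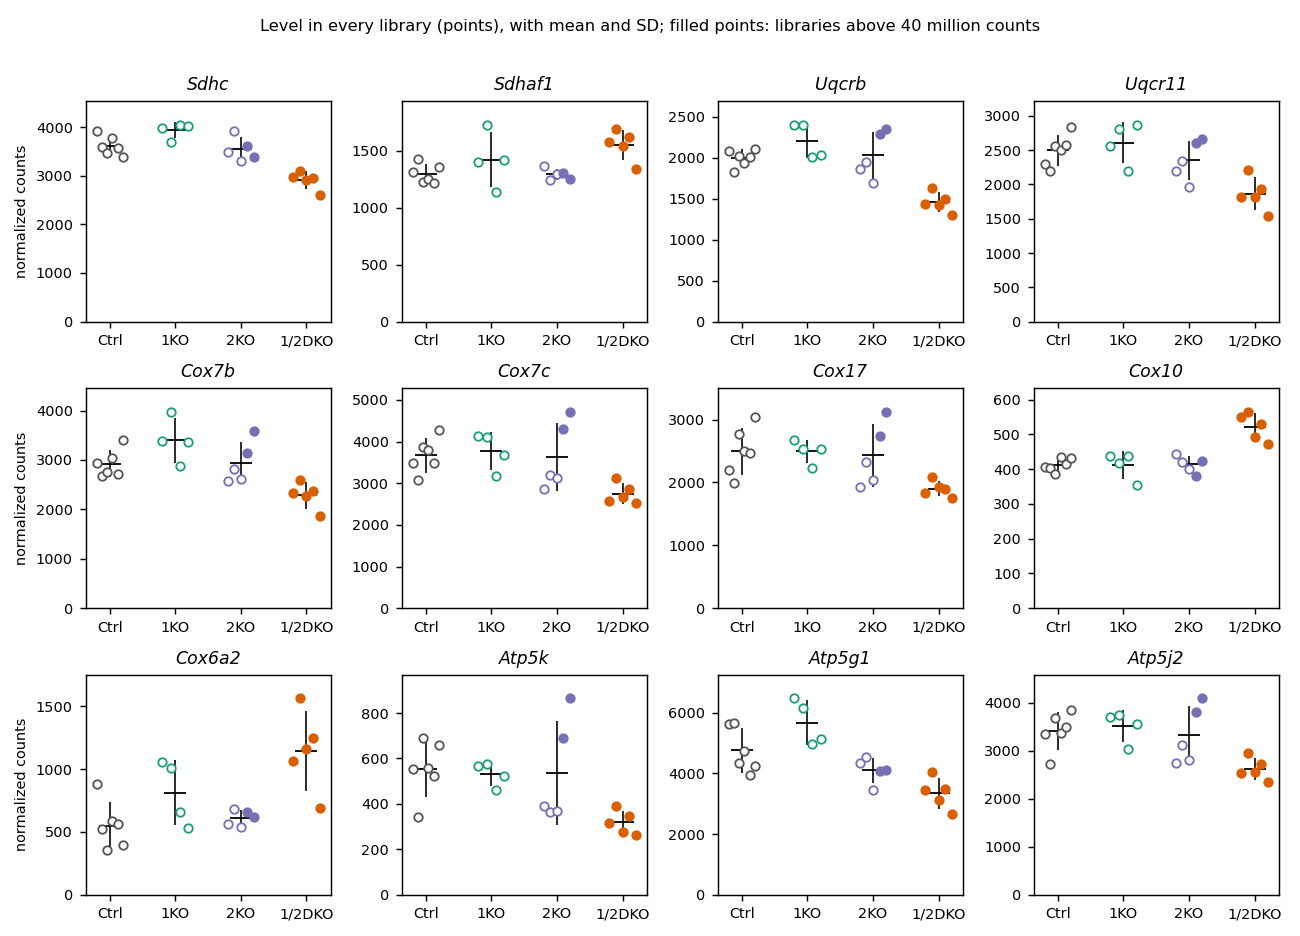
Normalized counts (y axis, from 0) of 12 members in every library of the groups Ctrl, β-Mfn1KO (1KO), β-Mfn2KO (2KO) and β-Mfn1/2DKO (1/2DKO), with the mean and SD in black and filled points for libraries above 40 M counts. Sdhc, Uqcrb and Cox7b separate β-Mfn1/2DKO from every Ctrl library downwards and Cox10 upwards, and for Atp5k, Cox7c, Cox17 and Atp5j2 the 2 filled β-Mfn2KO points stand above the 3 open ones.

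Complex IV had members that moved in both directions. Cox6a2, the isoform of subunit 6a known from heart and skeletal muscle (ENSMUSG00000030785, chr7:128205435-128206387), was the most variable member among the Ctrl libraries, with a coefficient of variation of 33.8%. It was at 1062, 1564, 1160, 1243 and 689 normalized counts in β-Mfn1/2DKO, and its lowest, median and highest Ctrl values were 353, 544 and 878. Replicate 5 lay within the Ctrl range and the other 4 above it. The β-Mfn2KO libraries ran from 536 to 679, while β-Mfn1KO was at 1058, 1009, 656 and 530, the first 2 of them inside the β-Mfn1/2DKO range.

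The log2 fold change of Cox6a2 over Ctrl was 1.05 ± 0.21 (edgeR adjusted p = 0.00088), or 2.08 times, and it passed in 31 of 32 alternatives, the exception being the fit with depth class. Of 6 striated muscle genes, 5 were measured. Ckm and Mb were at no more than 3.3 normalized counts in any library, Myh7 reached 6.1 and Tnnt2 21.2. Acta1 was at 23.3 to 52.6 in Ctrl and 58.7 to 222 in β-Mfn1/2DKO, and 1 gene of this list passed as higher. The list summed to 34.9 to 66.6 in Ctrl and 75.6 to 243.6 in β-Mfn1/2DKO, and its part in the value of Cox6a2 was not tested. Cox6a1, the isoform found in most tissues, was at 4333 ± 270 in Ctrl with a log2 fold change of 0.04 ± 0.07, so Cox6a2 remained the lesser transcript, at 27.1 TPM in Ctrl against 257 for Cox6a1, where TPM is a level scaled to transcript length.

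Cox10, the farnesyltransferase that makes heme O on the way to the heme A of complex IV (ENSMUSG00000042148, chr11:63962627-64079468), was at 549, 566, 492, 530 and 472 in β-Mfn1/2DKO and from 386 to 435 in Ctrl, with a Ctrl median of 410. The groups did not overlap, and its log2 fold change was 0.34 ± 0.07 (edgeR adjusted p = 0.00208). The single knockouts were at 355 to 443 across their 9 libraries. The call was lost with the authors' factors, with depth class and with length and GC offsets, where the log2 fold change went as low as 0.19. Cox15, which acts on heme O after Cox10, had a log2 fold change of -0.11 that did not pass.

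The lower members of complex IV were small proteins of its periphery and a copper chaperone. Cox7b, a single-helix subunit, was at 2324, 2593, 2277, 2363 and 1859 in β-Mfn1/2DKO and at a lowest of 2682, a median of 2849 and a highest of 3403 in Ctrl (log2 fold change -0.36 ± 0.09, edgeR adjusted p = 0.0109). These groups did not overlap. Cox7c, another single-helix subunit, was at 2583, 3129, 2659, 2868 and 2526 against a Ctrl lowest of 3071, median of 3650 and highest of 4277, where 1 library overlapped (-0.41 ± 0.11, edgeR adjusted p = 0.0125). Of its 75-base stretches 19.6% occur in other genes, chiefly Gm10012.

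Cox17, which carries copper to the Sco proteins for insertion into complex IV, was at 1836, 2091, 1930, 1900 and 1755 against a Ctrl range of 1993 to 3038 (-0.39 ± 0.11, edgeR adjusted p = 0.0143). Cox6b1, a subunit on the side of the intermembrane space, passed with the smallest margin of the 11 (-0.27 ± 0.08, edgeR adjusted p = 0.0258) and lost the call without Ctrl replicate 3 and without β-Mfn1/2DKO replicate 1, 3 or 5. Cox7b, Cox7c, Cox17, Cox6b1, Atp5k, Atp5j2 and Atp5j all lost their calls without replicates 4 and 5. Apart from Atp5k they also lost them with total-count scaling. With the authors' normalization factors Cox7c, Cox17, Cox6b1 and Atp5k lost theirs.

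In the families of complex IV with tissue isoforms, the ubiquitous forms did not pass apart from Cox6b1 and Cox7b. Cox4i1 was at 8737 in Ctrl and 8818 in β-Mfn1/2DKO (log2 fold change 0.01 ± 0.07), Cox8a differed by -0.13 ± 0.09 and Cox7a2 by -0.18 ± 0.08. Cox7a2l, which takes part in joining complexes III and IV, was at 0.22 ± 0.11 (edgeR adjusted p = 0.173) and varied over the Ctrl libraries from 5571 to 9433. Cox4i2, Cox6b2, Cox7a1 and Cox7b2 were nearly absent, with at most 29, 29, 23 and 3 raw counts in any library. Cox7b2 was at 0 in 16 of the 20 libraries, where a count of 0 allows up to 3 counts. No fold is given for these 4. Of the remaining subunits Cox5a, Cox5b and Cox6c were at -0.13, -0.1 and -0.27, and the assembly factors Cox11, Cox14, Cox15, Cox16, Cox18, Cox19 and Cox20 lay between -0.24 (Cox20) and 0.17 (Cox19), none of them past the test.

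In complex V, 4 of 16 subunits were lower and none was higher. Atp5k, subunit e, which helps ATP synthase form dimers at the edges of the cristae (ENSMUSG00000050856, chr5:108433244-108434448), had the largest fall of the 59 members. It was at 315, 391, 278, 347 and 264 normalized counts in β-Mfn1/2DKO, and its lowest, median and highest Ctrl values were 341, 555 and 690. Replicates 2 and 4 lay within the Ctrl range, above Ctrl replicate 2, and the other 3 below it. The β-Mfn1KO libraries were at 567, 577, 462 and 521. The β-Mfn2KO libraries were split, with 392, 366 and 369 in replicates 1 to 3 and 692 and 866 in the deep replicates 4 and 5.

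The log2 fold change of Atp5k over Ctrl was -0.79 ± 0.2 (edgeR adjusted p = 0.00851), or 0.579 times. With the authors' normalization factors it was -0.33 and did not pass, and with depth class as a covariate it was -1.84. Atp5mpl, another small membrane subunit, was split in the same way within β-Mfn2KO, with 756, 755 and 805 against 1254 and 1287. It differed from Ctrl by -0.44 ± 0.16 in β-Mfn1/2DKO and did not pass (edgeR adjusted p = 0.0602).

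The c-ring of ATP synthase, through which protons pass, is built from a mature protein that the 3 genes Atp5g1, Atp5g2 and Atp5g3 all encode. Atp5g1 was lower, at 3440, 4054, 3135, 3477 and 2653 in β-Mfn1/2DKO against a Ctrl lowest of 3946, median of 4543 and highest of 5652, with replicate 2 inside the Ctrl range (log2 fold change -0.51 ± 0.11, edgeR adjusted p = 0.00194). Atp5g2 and Atp5g3 did not pass, at -0.07 ± 0.07 and -0.15 ± 0.05. In Ctrl the levels of Atp5g1, Atp5g2 and Atp5g3, scaled to transcript length, were 271 ± 47.9, 156 ± 22.5 and 257 ± 29.8 TPM, and 35.8% of the 75-base stretches of Atp5g2 occur in other genes.

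Atp5j2, subunit f, was at 2528, 2964, 2556, 2716 and 2346 in β-Mfn1/2DKO against 2716 to 3848 in Ctrl (-0.38 ± 0.1, edgeR adjusted p = 0.00975), and Atp5j, coupling factor 6, at -0.22 ± 0.06 (edgeR adjusted p = 0.00911). None of the 5 subunits of the catalytic head passed in the reported fit. Atp5a1, the α subunit, was at 28214 in Ctrl and 27497 in β-Mfn1/2DKO (-0.04 ± 0.06) and had the smallest spread in Ctrl of the 59 members, with a coefficient of variation of 2.06% against a median of 7.44%. Atp5b, the β subunit, had the highest level of all members, at 528 ± 58.6 TPM, with a log2 fold change of -0.14 that did not pass. It passed as lower with DESeq2's size factors and with the authors' normalization factors. The stalk and membrane subunits Atp5f1, Atp5h, Atp5l and Atp5o and the associated Atp5s lay between -0.19 (Atp5l) and 0.03 (Atp5o), and none passed.

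**Figure D3:**
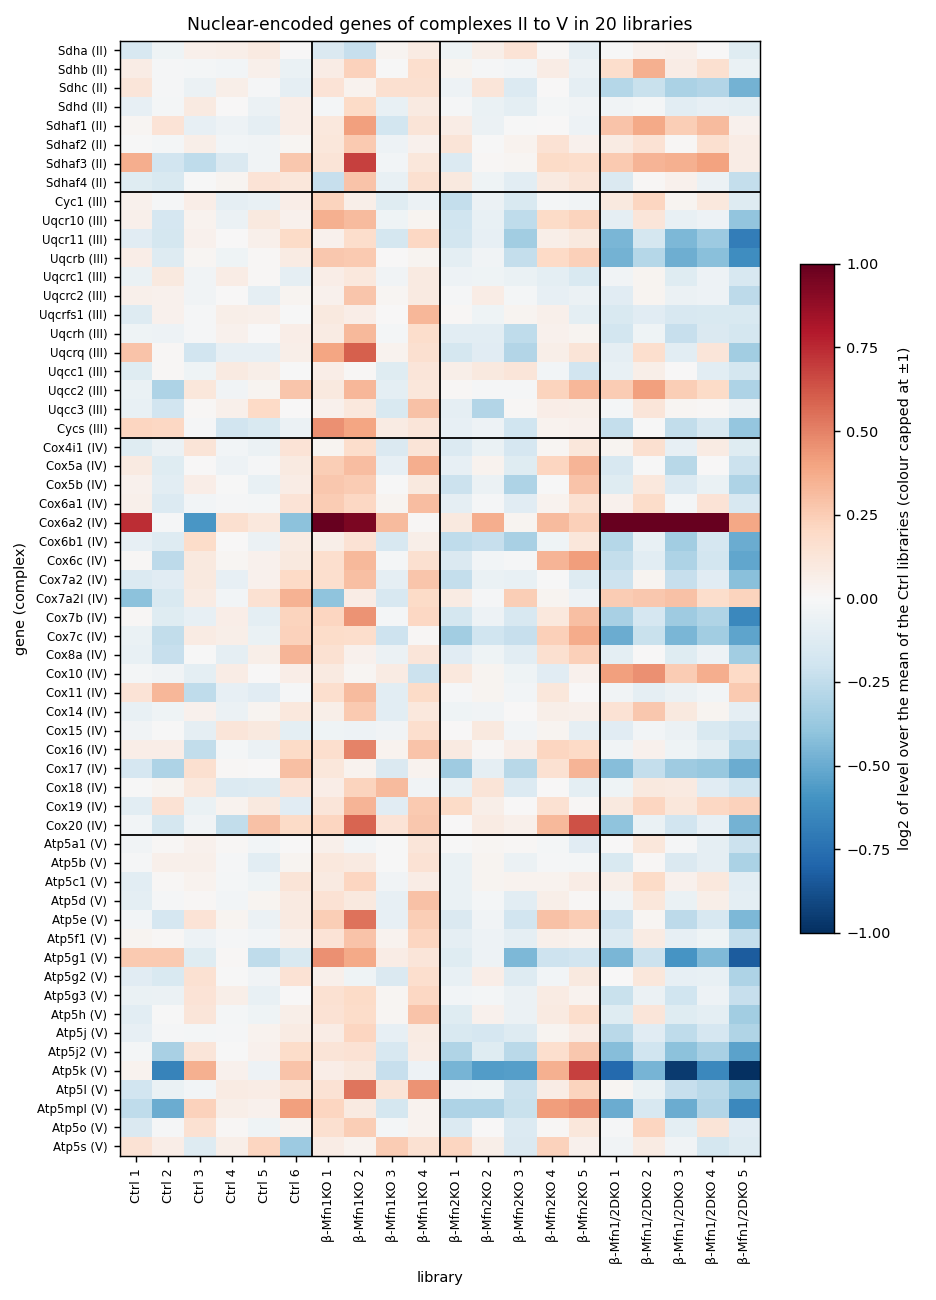
The log2 ratio of each library to the mean of the Ctrl libraries (colour, capped at 1 either way) for the 59 members in rows, by complex, and the 20 libraries in columns. Blue is concentrated in few rows of β-Mfn1/2DKO and is deepest in its replicate 5, β-Mfn1KO replicate 2 is the reddest column, and Cox6a2 stands out as the row with the widest range.

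Over the 59 members, the median deviation from the Ctrl mean was -0.09, 0.03, -0.10, -0.07 and -0.24 in the β-Mfn1/2DKO libraries 1 to 5, and between -0.04 and 0.08 in the Ctrl libraries. Replicate 5, the library with the most acinar RNA, was the lowest of the 20. The 5 β-Mfn1/2DKO libraries thus did not share 1 displacement of the whole set.

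For the promoters, RefSeq windows of 300 bases (GRCm38.p6, 250 before to 50 after a start) were matched by symbol for 48 of the 63 members, in 52 windows. The other 15 had no window, among them Sdhc, Uqcrb, Cox17 and Cox6a2. The nuclear respiratory factor 1 (NRF1) and GABP, a factor of the ETS family, are known activators of respiratory chain genes. The NRF1 letters, GCGCA, any base and GCGC, occurred, on either strand, in 25.0% of the members' windows and in 4.60% of 32851 windows of all genes. The GABP letters CCGGAAG occurred in 40.4% and 8.86%. The matches were spread over members that moved in either direction and members that did not pass.

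Of the 13 members with the NRF1 letters 1, Atp5k, was lower, and of the 20 with the GABP letters 4 were lower (Atp5j, Atp5k, Cox6b1 and Uqcr11) and 2 higher (Cox10 and Sdhaf1). The median log2 fold change was -0.08 over the 28 members with either motif and -0.15 over the 20 with neither. The ATF4 letters TGATGCAA were in none of the 52 windows and in 0.895% of all. The YY1 letters AAGATGGCG were in 3 (Atp5j, Atp5j2 and Cox10), or 5.77%, against 1.40% of all. The ERR alpha letters TCAAGGTCA were in 2 (Atp5g3 and Sdhd), or 3.85%, against 0.423% of all. The CREB letters TGACGTCA were in 2 (Cycs and Uqcrfs1), or 3.85%, against 1.79%. Members with ERR alpha or CREB letters did not pass in β-Mfn1/2DKO against Ctrl.

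The stretches before the RefSeq start of the window that hold the NRF1 or GABP letters are shown for the 4 lower members with a match. Cox10 is shown as a higher one, and the motif is in capitals. Each is on the minus strand and written from 5′ to 3′, from chr5:108434430-108434459 for Atp5k, chr16:84835020-84835049 for Atp5j, chr10:80406835-80406934 for Uqcr11, chr7:30626125-30626154 for Cox6b1 and chr11:64079473-64079572 for Cox10 (GRCm38.p6). The letters are NRF1 for Atp5k and GABP for the other 4, where Cox6b1 carries them on the opposite strand. The match ends 40, 54, 59, 21 and 20 bases before that RefSeq start, in that order. By the gene coordinates used elsewhere here, the stretch of Atp5j lies inside the annotated gene and those of Atp5k and Cox6b1 reach into it. Those of Uqcr11 and Cox10 lie outside it.
Atp5k: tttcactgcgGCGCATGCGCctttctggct
Atp5j: tagctgagggacCCGGAAGcacttaccctc
Uqcr11: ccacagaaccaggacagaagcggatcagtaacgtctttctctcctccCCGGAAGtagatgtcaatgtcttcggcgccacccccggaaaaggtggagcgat
Cox6b1: ctcctctcgcagCTTCCGGccagtcggaat
Cox10: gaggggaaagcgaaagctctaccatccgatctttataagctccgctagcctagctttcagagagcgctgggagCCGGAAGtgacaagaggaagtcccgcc

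The single knockouts showed no member past the test. In β-Mfn2KO against Ctrl, 0 of 63 members passed with edgeR and 0 with DESeq2, against 0.122% of all genes whose mean reached 100. The members' median log2 fold change was -0.01, from -0.21 (Atp5g1) to 0.24 (Cox20) among the 59, and 1 member, of low level, had an unadjusted p under 0.05. In β-Mfn1KO, 0 of 63 passed with either tool, against 0.0570% of all genes. There 56 of 63 log2 fold changes were above 0, with a median of 0.11 against 0.01 over all genes, and 17 members had an unadjusted p under 0.05. Scaled to total counts, 50 of 63 were above 0, with medians of 0.08 and -0.02, and 6 had such a p. Among 46 nuclear genes named Nduf, the family of complex I, 44 were above 0, with a median of 0.11, and 10 had such a p. Shares of all genes are not given for these counts or for the 1 in β-Mfn2KO. They therefore cannot be read as particular to the members. The highest member was Cox6a2, at 0.56 ± 0.23 (edgeR adjusted p = 0.624). By library the members' median deviation was 0.12, 0.22, -0.03 and 0.13 in β-Mfn1KO, so replicate 3 stood at the Ctrl level. Both comparisons use the same Ctrl libraries.

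What the loss of Mfn1 added where Mfn2 was already lost was read from β-Mfn1/2DKO against β-Mfn2KO. Here 10 members were lower and 3 higher, against 11.7% and 14.9% of all genes whose mean reached 100. The higher ones were Cox10, Cox6a2 and Sdhaf1. The lower ones were Sdhc, Uqcrb, Uqcr11, Cox6c, Cox7b, Cox7c, Cox17, Cox20, Atp5j2 and Atp5k, with the largest fall in Atp5k (log2 fold change -0.78 ± 0.21, edgeR adjusted p = 0.0131). Cox6c, a subunit of complex IV, was at 3402, 3697, 3731, 4769 and 5024 in β-Mfn2KO and 3189, 3498, 3036, 3310 and 2626 in β-Mfn1/2DKO (-0.4 ± 0.1, edgeR adjusted p = 0.00831). Without β-Mfn2KO replicate 5 the counts were 3 lower and 3 higher, against 10.6% and 16.6% of all genes. Without β-Mfn1/2DKO replicates 4 and 5 they were 2 lower and 5 higher, against 6.18% and 12.0%. Scaled to total counts they were 2 lower and 6 higher, against 5.43% and 28.6%, where the median of all genes was 0.13 in place of 0.03. With the authors' factors they were 4 lower and 2 higher, against 11.4% and 9.96%.

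When this comparison was limited to the 7 libraries above 40 M counts, 9 members were lower and 1, Cox7a2l, higher, against 3.30% and 9.08% of all genes. The 9 were Uqcrb, Cox6c, Cox7b, Cox7c, Cox17, Cox20, Atp5j2, Atp5k and Atp5mpl. Likewise, with depth class as a covariate in the fit of all libraries, 12 members were lower than Ctrl and 0 higher in β-Mfn1/2DKO, against 1.96% and 3.24% of all genes. In that fit Sdhc, Atp5g1, Cox6a2, Cox10 and Sdhaf1 no longer passed, although their log2 fold changes were close to those without the covariate. They were -0.29 in place of -0.32 for Sdhc, -0.5 in place of -0.51 for Atp5g1, 0.95 in place of 1.05 for Cox6a2, 0.4 in place of 0.34 for Cox10 and 0.28 in place of 0.26 for Sdhaf1, with edgeR adjusted p-values of 0.13 to 0.374. Atp5e, Atp5mpl and Cox6c passed in that fit, at -0.6, -1.15 and -0.71 in place of -0.21, -0.44 and -0.27. Both of these fits set β-Mfn1/2DKO against a depth that rests on the 2 deep β-Mfn2KO libraries.

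Those 2 libraries stood apart from the other 3 of their group in many members. Both were above the other 3 in 34 of the 59 members and below them in 4, against 15.0% and 16.3% of all genes. Of the 11 members that were lower in β-Mfn1/2DKO than in Ctrl, 9 were higher in both deep β-Mfn2KO libraries, by a log2 ratio of up to 1.05 (Atp5k). Sdhc and Atp5g1 were the exceptions. In these 9 members the deep libraries of β-Mfn2KO were thus higher than the others of their group, while the deep libraries of β-Mfn1/2DKO were lower than Ctrl on average. The part of depth in either difference was not tested beyond the fit with depth class.

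The lower members were mostly short transcripts. Their reference transcripts had a median length of 596 bases, against 1076 for the 45 members that did not pass and 2490 for the 3 higher ones. Of the 22 members under 700 bases 7 were lower, and of the 37 longer ones 4. The median log2 fold change was -0.2 over the short members and -0.05 over the longer ones, while it was -0.06 over all 341 genes under 700 bases at that level. Across the 59 members Spearman's rho of length and log2 fold change was 0.48, and across 12264 genes it was -0.06, as a description over genes that share the same libraries.

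The gap between the median deviations of short and longer members was -0.17, -0.15, -0.19, -0.11 and -0.28 in β-Mfn1/2DKO, 0.15 and 0.2 in the deep β-Mfn2KO libraries, -0.07, -0.03 and -0.14 in the other β-Mfn2KO libraries, and -0.15 to 0.07 in Ctrl. With offsets for transcript length and GC content in the fit, 19 members were lower and 1 higher, against 22.6% and 10.3% of all genes whose mean reached 100, with a members' median of -0.16 where that of all genes was -0.06. The part of transcript length in these values was not tested beyond that.

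**Figure D4:**
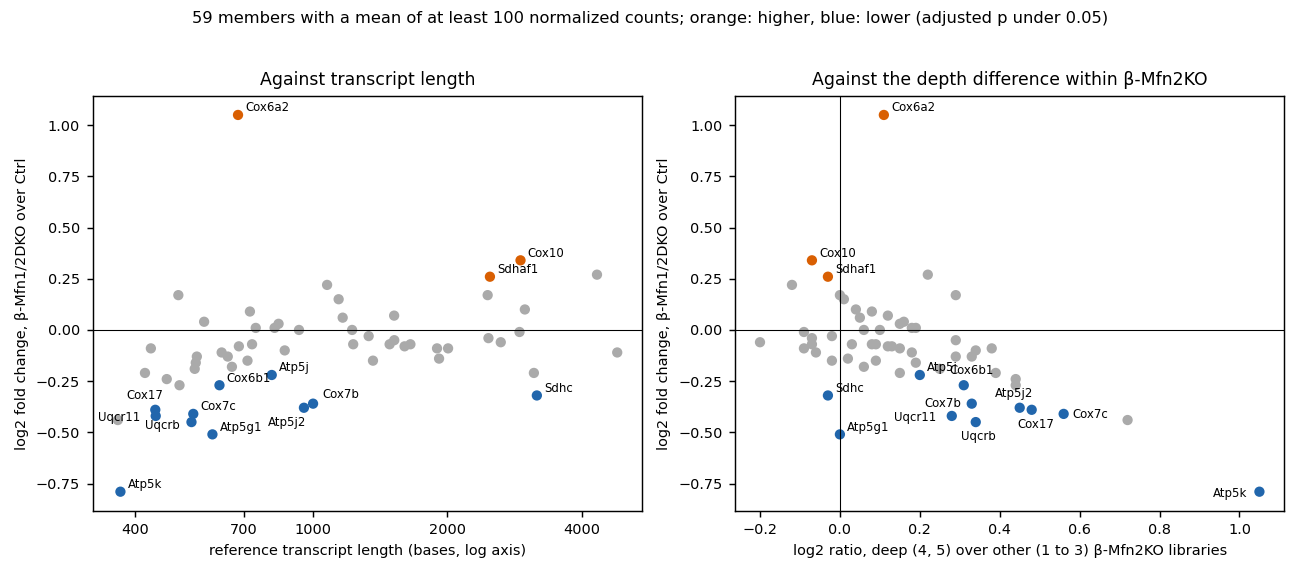
Difference between β-Mfn1/2DKO and Ctrl as a log2 fold change (y axis) of the 59 members, against the length of the reference transcript (left, log axis) and against the log2 ratio of the deep to the other β-Mfn2KO libraries (right). Lower members (blue) lie mostly at short lengths and at positive ratios, with Atp5k at 371 bases and a ratio of 1.05 as the extreme, and Sdhc, at 3171 bases and a ratio of -0.03, apart from them.

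Whether the double knockout differed from the sum of the single ones was tested by the interaction, β-Mfn1/2DKO minus β-Mfn2KO minus β-Mfn1KO plus Ctrl. It passed in 11 members, all below 0, against 6.65% of all genes below and 6.15% above. They were Sdhc, Uqcrb, Uqcrfs1, Cox5a, Cox6c, Cox7b, Cox16, Cox20, Atp5g1, Atp5g3 and Atp5l. The median over the 63 members was -0.18, against 0.02 over all genes. Uqcrb was at -0.63 ± 0.12 (edgeR adjusted p = 0.00213) and Sdhc at -0.41 ± 0.08 (edgeR adjusted p = 0.00323).

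Cox20, a chaperone of the mtDNA-encoded subunit mt-Co2, had the largest interaction, at -0.78 ± 0.19 (edgeR adjusted p = 0.013). Its log2 fold changes over Ctrl were 0.24 in β-Mfn2KO, 0.3 in β-Mfn1KO and -0.24 in β-Mfn1/2DKO, none of which passed by itself. Its libraries were at 319 to 463 in Ctrl, 441, 566, 417 and 457 in β-Mfn1KO, 381, 402, 393, 475 and 589 in β-Mfn2KO and 287, 362, 333, 358 and 274 in β-Mfn1/2DKO. Exons of Hnrnpu overlap Cox20 on the other strand. The interaction of Uqcrb and of Cox20 passed under all 31 alternatives, while that of Atp5g1 and of Uqcrfs1 each lost the call under 20. Without β-Mfn1KO replicate 2 it was 5 members, and scaled to total counts 3, of which 1, Cox10, was above 0. Without β-Mfn1/2DKO replicates 4 and 5 it was 4 (Sdhc, Uqcrb, Cox7b and Cox20).

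The members were set beside the mtDNA-encoded subunits of the same complexes. All 6 mtDNA-encoded subunits of complexes III to V were lower in β-Mfn1/2DKO than in Ctrl, with a median log2 fold change of -1.67. The nuclear subunits of complexes III, IV and V had medians of -0.09, -0.16 and -0.14. The median of complex IV includes the nearly absent Cox4i2, Cox6b2, Cox7a1 and Cox7b2. In complex IV the libraries held 728 ± 100 mtDNA-encoded counts (mt-Co1 to mt-Co3) per 100 nuclear-encoded ones in Ctrl, 663 ± 49.7 in β-Mfn1KO, 442 ± 47.4 in β-Mfn2KO and 246 ± 57 in β-Mfn1/2DKO. In complex III the ratio was 255 ± 30.8 per 100 in Ctrl and 83.5 ± 19.2 in β-Mfn1/2DKO, and in complex V 46.2 ± 5.97 and 16.3 ± 2.8. The highest β-Mfn1/2DKO library lay below the lowest Ctrl library in each of the 3 complexes. The summed nuclear subunits differed far less, with 46435 ± 3880 in Ctrl and 44695 ± 3530 in β-Mfn1/2DKO for complex IV and 22032 ± 664 and 21385 ± 1060 for complex II.

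Of 28 other assembly factors and associated proteins of complexes III to V, 6 were higher and 7 lower in β-Mfn1/2DKO than in Ctrl. Of all genes whose mean reached 100 normalized counts, 19.5% were higher and 14.0% lower. Higher were Surf1, which takes part in placing heme in complex IV, and Sco2, which takes part in copper delivery to it, as well as Coa5, Coa6, Apopt1 and the ATP synthase assembly factor Atpaf1. Sco2 was at 168 ± 30.5 in Ctrl and 256 ± 51.9 in β-Mfn1/2DKO (log2 fold change 0.61 ± 0.16, edgeR adjusted p = 0.00906), and Surf1 at 1550 ± 98.3 and 1872 ± 141. Lower were Coa7, Hccs, Higd2a, Pet100, Atpif1, Usmg5 and Ndufa4. Usmg5, a small ATP synthase membrane protein, was at 2612 ± 295 and 1601 ± 104 (-0.71 ± 0.13, edgeR adjusted p = 0.00056), and Ndufa4, which is found with complex IV despite its name, at 3318 ± 121 and 2145 ± 168 (-0.63 ± 0.08, edgeR adjusted p = 6.2e-06). Among 46 nuclear genes named Nduf, the family of complex I, 9 were lower and 3 higher, against the same 14.0% and 19.5% of all genes. Their median was -0.01, and Ndufa4 is among the 9, so that it is counted in both lists.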

How the data were processed

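Islet RNA of 20 samples was sequenced as paired-end reads. According to the labels and methods, the authors trimmed reads with cutadapt 2.3, checked them with FastQC 0.11.8, aligned them to GRCm38 with STAR 2.6.1b and quantified genes with RSEM 1.3.1. The deposited table holds RSEM expected counts rounded to whole numbers, and the deposited depth-normalized signal, made with DESeq2 1.26.0, was used for 1 alternative scaling. Whether counting used strand is not given in the sources used here.

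The expected counts as deposited were fitted with edgeR 4.0.16 (limma 3.58.1, R 4.3.3), with TMM scaling, 1 coefficient per group, all 20 libraries and all 28632 genes, by quasi-likelihood tests with Benjamini-Hochberg adjustment over all genes. A gene passed at an adjusted p under 0.05, and folds over 1.5 were also counted. Errors of fold changes are standard errors, other errors SD. TPM were recomputed from 1 reference transcript per gene (GENCODE M21). Shared sequence is the percentage of a member's 75-base stretches found in other genes. The study gives n as mice, the labels do not tie libraries to animals, and p-values measure the spread between these libraries, of which no 2 in a group were identical. Of the genes, 71 had no symbol. The fit was tested on simulated data.

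The members and gene lists were chosen with earlier results of these data known. Genes described by name were, per complex, up to 3 per direction with the largest change past the test, up to 10 past each single-knockout or interaction test, genes whose proteins the study stained or blotted, Cycs, Cyc1, isoform families and the most and least variable member in Ctrl. Others, Atp5j among them, were named after their values were seen. Alternatives were 3 scalings, DESeq2 1.42.0, a filter on low counts (filterByExpr), 2-group fits, replicate block, sex, depth class, acinar score, length and GC offsets, and leaving libraries out.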

Additional observations from a re-analysis of the deposited data

Results flagged for a closer look

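Among 124 sets of libraries, each 1 named member in 1 group, 2 held a library far from the rest by Dixon's test, where chance flags about 1 in 20. Cox6c was at 3133 normalized counts in Ctrl replicate 2, and the other Ctrl libraries were at 3783 to 4028. Uqcrfs1 was at 3264 in β-Mfn1/2DKO replicate 2, and the other 4 libraries of that group lay between 3165 and 3176.

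The effect of losing Mfn1 differed with the state of Mfn2 in 11 members, by the interaction term of the edgeR fit over all genes. On the log2 scale the difference was -0.63 for Uqcrb, -0.41 for Sdhc, -0.78 for Cox20, -0.59 for Cox7b, -0.56 for Cox6c and -0.51 for Atp5l. It was -0.45 for Cox16, -0.29 for Atp5g3, -0.27 for Uqcrfs1, -0.55 for Atp5g1 and -0.44 for Cox5a. Atp5l, Cox16, Atp5g3, Uqcrfs1 and Cox5a passed neither in β-Mfn1/2DKO against Ctrl nor against β-Mfn2KO. In β-Mfn1KO their log2 fold changes over Ctrl, which enter the term with a minus sign, were 0.32, 0.25, 0.14, 0.13 and 0.22. None of these passed either. Of the 75-base stretches of Cox16, 52.8% are shared with other genes, chiefly the overlapping Gm20498.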

How the results depend on the processing

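The number of members that passed in β-Mfn1/2DKO against Ctrl, 14, was 12 to 16 when each library was left out in turn, 23 with DESeq2, 22 with filterByExpr and 9 without β-Mfn1/2DKO replicates 4 and 5. The 2 members past 1.5-fold as well became 10 with depth class as a covariate, 1 with the authors' normalization factors and 1 without replicates 4 and 5, and stayed at 2 when each library was left out. Against β-Mfn2KO, 13 members passed and 6 to 15 when each library was left out (6 without β-Mfn2KO replicate 5), 8 with total-count scaling, 6 with the authors' factors, 23 with DESeq2 and 7 without replicates 4 and 5. The interaction passed in 11 members and in 5 to 14 when each library was left out, the fewest without β-Mfn1KO replicate 2. It was 7 without β-Mfn1KO replicate 1, β-Mfn2KO replicate 4 or β-Mfn1/2DKO replicate 1, 3, 4 or 5. It passed in 3 with total-count scaling, 6 with the authors' factors, 21 with DESeq2, 18 with depth class, 7 with the acinar score and 4 without replicates 4 and 5. The cause was not tested, except that leaving libraries out also leaves fewer samples. Shares of all genes are not given for the DESeq2 test, filterByExpr, the replicate block, the acinar score or the alternative fits of the interaction. Nor are they given for the counts past 1.5-fold under alternatives, or for most fits that left out a single library. Such counts therefore cannot be read as particular to the members. In both single knockouts the count was 0 under all 31 alternatives. Of the log2 fold changes of named members, 105 of the values under alternatives lost the call, 36 gained one and 1317 stayed on their side of the threshold. No value that passed, with or without the alternative, changed sign, whereas 38 values of 14 members that did not pass crossed 0.

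What the replicate numbers stand for is not given in the sources used here, and the reported fit did not treat them as pairs. Over 27 same-numbered pairs of libraries the mean correlation of deviations was 0.246, against -0.0544 for other pairs, 21 were over 0.1 and the lowest was -0.102. Same-numbered libraries were mostly of the same sex, and the part of sex in this correlation was not tested. With the replicate block the counts were 16 against Ctrl, 15 against β-Mfn2KO and 12 for the interaction. Shares of all genes are not given for that fit, so these counts cannot be read as particular to the members.

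Depth sets the precision of the 4 members under 100 normalized counts, for which 3 counts are worth 10.5 normalized counts in the shallowest library and 0.922 in the deepest. Depth, acinar RNA and genotype move together in these libraries, and intervals for counting alone would not cover that.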
